A study of Mus musculus with 2 samples.

Results

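The immunoglobulin heavy chain (Igh) variable segments were examined in single-cell ATAC-seq data of mouse hematopoietic stem cells (HSCs), together with the diversity and joining segments of the same locus. Members were the annotated segments of mm10 chromosome 12 whose symbols start with Ighv, Ighd or Ighj. The annotation held 209 such records, and a symbol with more than 1 record, which was so for 2 symbols, was counted once. This left 207 segments (183 V, 20 D and 4 J) of 53843 annotated genes on the autosomes and X. The gene Ighd, which encodes the constant region of IgD, was left out because it is not a segment.

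Single-cell ATAC-seq sequences the fragments that a transposase cuts from open chromatin in single nuclei. There were 2 libraries of C57BL/6 mice, 1 from bone marrow of 10-week-old mice (young) and 1 from 20-month-old mice (aged). In both, bone marrow cells pooled from female mice were sorted as positive for Sca-1, c-kit and CD150 and negative for lineage (Lin) antigens, CD34, CD48, Flt3 and what the labels call IL-7, and the lineage antigens of the study's methods include B220, a B cell antigen. The labels give neither group a transgene or a treatment. With 1 library for each age there was no replicate, so no test between ages could be made. Each ratio is therefore given with a 95% exact interval that covers counting error only, and a difference between animals or libraries cannot be told apart from one between ages.

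Barcodes called as cells by the authors were kept when 3000 to 20000 of their fragments lay in the authors' peaks, which left 4887 young and 3405 aged cells with 50065741 and 38659456 nuclear fragments. The median young cell had 9888 fragments and the median aged cell 11019, and 26 barcodes were found among the kept cells of both. The promoters of 10 HSC marker genes had log2 ratios between -0.13 and 0.40 with 5 above 0, the highest at Slamf1, which encodes the sort antigen CD150 (0.14 to 0.66). Of these, Kit, Meis1, Hlf, Fgd5 and Procr had 440 fragments or more in each library, and Mecom, with 18 and 14, the fewest. Values are fragments per 1000000 nuclear fragments (FPM), and a window was given each fragment that started or ended inside it. A segment's window was the annotated segment with 500 bp on either side.

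A B cell builds its heavy chain gene by joining 1 D to 1 J segment and then 1 V segment to the joined DJ. The RAG recombinase cuts at the recombination signal sequence (RSS) beside each segment, which is made of a conserved heptamer, a spacer and a nonamer. In V segments the RSS follows the 3′ end. Rearrangement of V segments depends on their chromatin becoming open and on folding of the locus, in which the insulator protein CTCF and the B cell factor Pax5 take part. HSCs precede this step and carry the locus unrearranged.

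All members lie on the minus strand, so a walk from the J segments to rising coordinates passes the D segments and then the V segments. Ighj4 starts at chr12:113428514, and Ighv1-86, the farthest V segment, starts 2581 kb beyond it. The V segments were divided by position into a proximal part of 32 segments (Ighv5-1 to the last of the interleaved Ighv2 and Ighv5 segments), a middle part of 31 segments (Ighv7-1 onwards, of many small families) and a distal part of 120 segments (Ighv8-1 to Ighv1-86, mostly of the Ighv1 and Ighv8 families).

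The best matches to an RSS at some of the segments named below are shown first, because cut sites of the transposase were densest on and just after the RSSs. Each runs 5′ to 3′ on the minus strand of mm10 from the first base of the best-matching heptamer, with the positions of the heptamer and the nonamer in capitals. The match was poor at Ighv8-6, with 2 mismatches in the heptamer and 6 in the nonamer. At Ighv8-2 the nonamer had 5 mismatches.
Ighv1-5, chr12:114513292-114513329: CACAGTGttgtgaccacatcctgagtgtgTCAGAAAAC
Ighv1-2, chr12:114469037-114469074: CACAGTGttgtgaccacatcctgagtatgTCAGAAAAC
Ighv8-2, chr12:114462251-114462289: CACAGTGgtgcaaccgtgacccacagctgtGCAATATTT
Ighv15-2, chr12:114564539-114564577: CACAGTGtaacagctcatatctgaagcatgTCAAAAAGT
Ighv9-4, chr12:114299923-114299960: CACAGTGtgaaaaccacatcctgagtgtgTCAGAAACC
Ighv1-47, chr12:114991069-114991107: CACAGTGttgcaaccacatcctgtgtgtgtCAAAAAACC
Ighv1-58, chr12:115312128-115312165: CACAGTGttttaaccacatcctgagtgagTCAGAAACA
Ighv8-6, chr12:115165738-115165776: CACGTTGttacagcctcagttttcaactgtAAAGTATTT
Ighv5-2, chr12:113578465-113578503: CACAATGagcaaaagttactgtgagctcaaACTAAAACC
The first 5 belong to segments that were more than 1.5-fold higher in the aged library, the next 3 to the segments that were most open in the young library, and the last to a segment near the D segments. The heptamer was intact (CACAGTG) in 108 of the 183 V segments, and its first base directly followed the annotated end in 154 of the best matches.

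V segments were more open in the aged library. Their windows together held 4139 young and 5649 aged fragments, that is 82.7 FPM (95% interval 80.2 to 85.2) and 146.1 FPM (142.3 to 149.98), a ratio of 1.77 (1.70 to 1.84). D segments did not share this, with 117 and 67 fragments and a ratio of 0.742 (0.541 to 1.01). Nor did the 4 J segments, with 23 and 14 fragments and a ratio of 0.788 (0.375 to 1.60). The V interval did not overlap those of D and J, and the D and J intervals both reached 1.

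The gain differed along the V region. In the middle part the windows rose from 6.01 to 17.6 FPM, a ratio of 2.93 (2.56 to 3.37). The distal part rose from 65.2 to 113.0 FPM, a ratio of 1.73 (1.66 to 1.81). The proximal part, which is nearest to the D segments, went from 11.5 to 15.5 FPM, a ratio of 1.35 (1.20 to 1.52). The 3 intervals did not overlap each other.

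A call was made for members with at least 20 fragments over both libraries, which corresponds to 0.399 FPM of young or 0.517 FPM of aged fragments. Of 207 members, 91 reached this minimum, 90 of them V segments. Among those 91, 54 were at least 1.5-fold higher and 2 at least 1.5-fold lower in the aged library. Over 37350 annotated genes treated alike, 7.24% were called higher and 3.96% lower. Among 5903 genes shorter than 1000 bp, which have windows about as small as those of the segments, 12.1% were called higher and 11.9% lower. Some members, such as Ighv14-4, reached the minimum through the aged library alone. With a minimum of 20 fragments in the young library instead, 30 of 56 V segments (53.6%) were higher and 0 lower, beside 4.67% and 3.38% of 32979 genes.

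**Figure D1:**
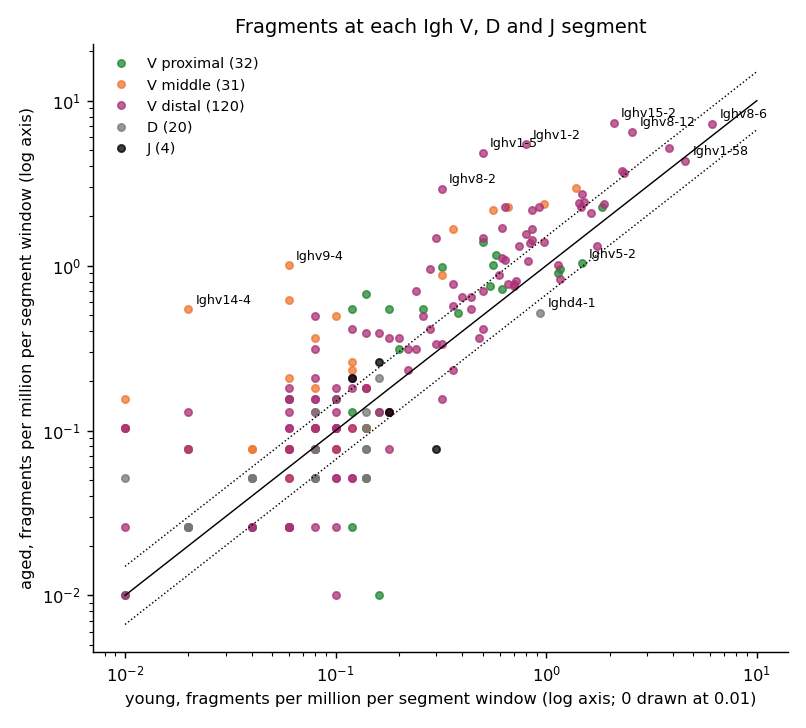
Fragments per 1000000 at each of the 207 Igh segment windows in the young (x axis) and aged (y axis) library, both on log axes with windows of 0 fragments drawn at 0.01. The solid line marks equal values and the dotted lines 1.5-fold; the 10 V segments of the middle part (orange) with at least 20 fragments lie above the diagonal, 6 sparser ones lie below it, and so do Ighd4-1 and Ighv5-2.

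Large rises were found at 4 nearby segments near the start of the distal part, between 1034 and 1136 kb from Ighj4. Ighv1-5, a functional V gene, had 25 young and 187 aged fragments (0.499 and 4.84 FPM), a log2 ratio of 3.22 with an interval of 2.67 to 3.94. Ighv8-2 had 16 and 113 fragments, a log2 ratio of 3.11 (2.43 to 4.05). Ighv1-2, which is annotated as a pseudogene, had 40 and 211 fragments, a log2 ratio of 2.74 (2.28 to 3.30). All 3 had 0.799 FPM or less in the young library and between 2.92 and 5.46 FPM with age. Ighv15-2 had 105 and 285 fragments, a log2 ratio of 1.80 (1.49 to 2.15), and was the most open V segment per kb of window in the aged library, at 5.14 FPM per kb. Without these 4 segments, the remaining 179 V segments had 3953 and 4853 fragments and a log2 ratio of 0.67 (0.61 to 0.73). The windows of Ighv1-5, Ighv8-2, Ighv1-2 and Ighv15-2 could be told from copies, since between 95.9% and 100% of the 50-base stretches in each were unique in the genome.

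In the middle part all 10 segments that reached the minimum were called higher, but 6 of them had under 20 young fragments, and Ighv14-2, Ighv14-4, Ighv7-4 and Ighv9-4 could reach the minimum only by being higher in the aged library, so the count is no support. With 20 fragments in the young library as the minimum, 4 segments were left and all 4 were called higher, beside 4.67% of all genes. The sum over the whole part, given above, does not use the minimum. Ighv9-4 went from 3 to 39 fragments, a log2 ratio of 3.64 (2.42 to 6.41). Ighv7-4 went from 3 to 24, a log2 ratio of 2.96 (1.65 to 5.75). Ighv14-4 went from 1 to 21, a log2 ratio of 3.73 (2.13 to 10.1). These segments were close to empty in the young library, so the size of their change is poorly known. Better counted were Ighv4-1 with 49 and 91 fragments, Ighv4-2 with 33 and 87, Ighv11-1 with 69 and 115, and Ighv11-2 with 28 and 84. The other 21 segments of the middle part were under the minimum.

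The 3 segments that were most open in the young library were not called. Ighv8-6, the most open V segment of the young library, had 307 and 281 fragments (6.13 and 7.27 FPM), a log2 ratio of 0.24 (0.01 to 0.48). Ighv1-58 had 229 and 167 fragments, a log2 ratio of -0.08 (-0.38 to 0.21). Ighv1-47 had 191 and 199, a log2 ratio of 0.43 (0.14 to 0.73). In the aged library the order was another, with Ighv15-2 at 7.37 FPM, Ighv8-6 at 7.27 FPM, Ighv8-12 at 6.47 FPM and Ighv1-2 at 5.46 FPM. Ighv8-12 rose from 128 to 250 fragments, a log2 ratio of 1.33 (1.03 to 1.66). Other segments of the 10 most open ones were Ighv8-14 (114 and 145 fragments, log2 ratio 0.71), Ighv1-74 (117 and 140, 0.63) and Ighv8-7 (94 and 91, 0.32).

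Of the 90 V segments with enough fragments, 79 had a log2 ratio above 0 and 11 below. Ighv1-59 was the V segment called lower, with 16 and 6 fragments and an interval from -2.68 to 0.39. The 1.5-fold limit is a log2 ratio of 0.585. Ighv1-74 at 0.63 and Ighv1-81 at 0.63 were just called higher, and Ighv2-4 at 0.58 and Ighv1-76 at 0.54 were just not called. Ighv1-86, at the far end, had 12 and 27 fragments, a log2 ratio of 1.46 (0.51 to 2.66).

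At the other end, the segments closest to the D segments were not called higher. Ighv5-1, a pseudogene and the V segment nearest to D, had 6 and 5 fragments. Ighv5-2, known as the most often rearranged V segment of early B cells (V81X), had 74 and 40 fragments (1.48 and 1.03 FPM), a log2 ratio of -0.51 (-1.11 to 0.06). Its neighbours Ighv2-2, with 58 and 37 fragments, and Ighv5-4, with 57 and 35, also had log2 ratios below 0 with intervals that reached above it, -0.27 (-0.91 to 0.34) and -0.32 (-0.98 to 0.30). Farther out in the same part, Ighv5-16 rose from 7 to 26 fragments and Ighv5-17 from 25 to 54.

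The D and J segments were sparse. Ighd4-1, the D segment next to J, was the only D segment to reach the minimum and was called lower, with 47 and 20 fragments and a log2 ratio of -0.83 (-1.69 to -0.08). With 1000 bp on either side in place of 500 the log2 ratio was -0.53, inside the 1.5-fold limit. The other 19 D segments had between 2 and 16 fragments each over both libraries and together 70 and 47, a log2 ratio of -0.20 (-0.77 to 0.35). Their windows were poorly mappable, with a median of 64.5% unique 50-base stretches, and some overlap. Ighj4 had 15 and 3 fragments, Ighj3 9 and 5, Ighj2 6 and 8, and Ighj1 8 and 10. None of the J segments reached the minimum, and since their windows overlap they share fragments.

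The V families are unequal in size, and several small families differed most. Summed over its windows, Ighv14 (4 segments) had a log2 ratio of 2.62 (1.71 to 3.66), Ighv9 (4) of 2.40 (1.47 to 3.45), Ighv7 (4) of 1.98 (1.47 to 2.51), Ighv15 (2) of 1.80 (1.47 to 2.13), Ighv4 (2) of 1.49 (1.11 to 1.89) and Ighv11 (2) of 1.41 (1.05 to 1.78). All of these but Ighv15, whose fragments are nearly all those of the distal Ighv15-2, lie wholly in the middle part. The Ighv9 sum of 12 and 49 fragments rested on Ighv9-4, which had 3 and 39 of them. Of the other families that lie wholly there, Ighv3 (8 segments) was at 0.91 (0.22 to 1.62) and Ighv16 (1) at -0.43 (-2.65 to 1.54). The other small families were Ighv10 (4) at 1.14 (0.23 to 2.10), Ighv6 (7) at 0.67 (0.33 to 1.01), Ighv12 (3) at 0.40 (-0.15 to 0.94) and Ighv13 (2) at 0.05 (-1.49 to 1.54). Small families thus lay both above and below the large ones. The large families were Ighv1 (92 segments) at 0.74 (0.65 to 0.82), Ighv8 (16) at 0.76 (0.65 to 0.88), Ighv2 (11) at 0.60 (0.35 to 0.85) and Ighv5 (21) at 0.34 (0.11 to 0.57). Family and position are tied in this locus, and their parts cannot be told apart here.

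Pseudogenes were less open than functional V genes and shared the gain. The 113 functional V genes had a median of 33 fragments over both libraries and the 70 pseudogenes a median of 9. Their summed log2 ratios were 0.80 (0.73 to 0.86) and 0.91 (0.78 to 1.04). In the proximal part the 13 pseudogenes together had 63 and 41 fragments, a log2 ratio of -0.25 (-0.85 to 0.34), and the 19 functional genes 512 and 559, a log2 ratio of 0.50 (0.32 to 0.68).

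Because near-identical copies can share or lose reads, windows were also split by mappability. In 122 V segments at least 80% of the 50-base stretches of the window were unique, and these had a log2 ratio of 0.96 (0.89 to 1.03). The other 61 had a log2 ratio of 0.54 (0.44 to 0.64). Values of single segments in the second set, such as Ighv8-6 with 68.5% unique stretches, are less certain.

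Fragments were also counted in bins of 5 kb that do not depend on the annotated segments. In the V region 309 of 488 bins had at least 20 fragments, with a median log2 ratio of 0.51. The median was 0.28 in the proximal, 1.27 in the middle and 0.46 in the distal part, and in the middle part it was 0.63 when all 87 bins were used. The proximal value was unsteady, at 0.11 without the 10 cells with the most V region fragments in each library and 0.79 in unique bins. It was below 0, at -0.10 over 18 bins, with 20 young fragments as the minimum. Over the genome, 341569 such bins had a median of 0.02. In the V region 136 of the 309 bins were called higher (44.0%) and 14 lower (4.53%), beside 14% and 7.46% of bins in the whole genome. V region bins are sparse, with a median of 38 fragments. Of the 244 with 20 to 100 fragments, 102 were called higher. The genome-wide shares for such bins were 17.8% higher and 9.72% lower. Because sparse bins could reach the minimum through the aged library, these counts are no support. With 20 young fragments as the minimum, 57 of 138 V region bins were higher (41.3%) and 6 lower (4.35%), beside 7.51% and 8.10% of 249818 bins. By part, 8 of 9 middle bins were higher and 0 lower, 44 of 111 distal bins higher and 1 lower, and 5 of 18 proximal bins higher and 5 lower.

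**Figure D2:**
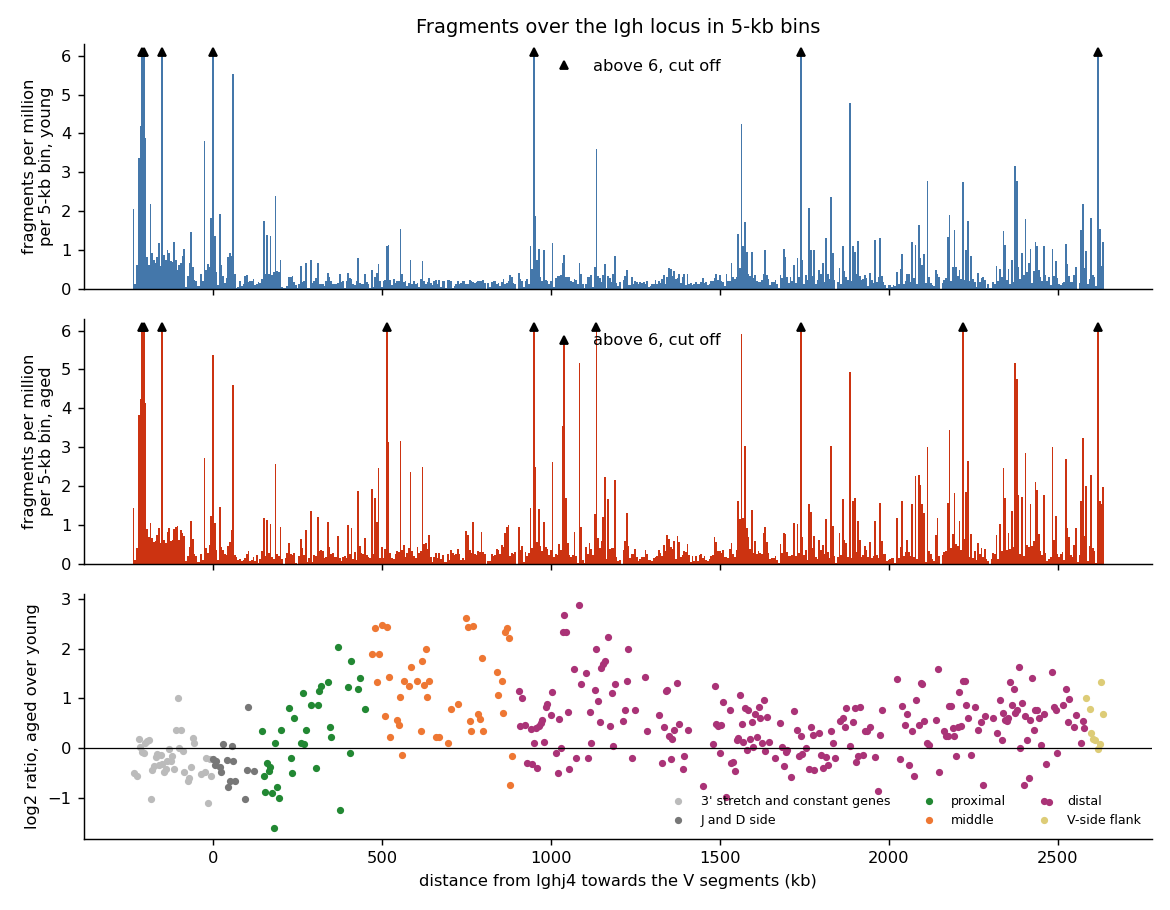
Fragments per 1000000 in 5-kb bins of the Igh locus in the young (top) and aged (middle) library, with bins above 6 marked by triangles, and the log2 ratio of bins with at least 20 fragments (bottom), by distance from Ighj4. Ratios lie mostly below 0 over the constant, J and D stretches, are highest in the middle part and the start of the distal part, and come back towards 0 around 1800 kb before rising again.

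In steps of 100 kb, 21 of 26 steps of the V region had a ratio whose interval lay above 0 on the log2 scale and 1 step had an interval below 0. That step was the first, which holds Ighv5-1 to Ighv5-4, with 272 and 157 fragments and a log2 ratio of -0.42 (-0.71 to -0.13). Next to it, the step from Ighv6-1 to Ighv5-11 was at 0.08 (-0.15 to 0.31), the following at 0.78 (0.54 to 1.03) and the step from Ighv7-2 to Ighv14-2 at 1.47 (1.29 to 1.64). Between Ighv3-7 and Ighv6-3 the ratio fell back to 0.28 (0.14 to 0.41), with 905 and 847 fragments. This step holds the densest 5-kb bin of the V region, with 931 fragments over both libraries, which changed little (given below). The step was not computed without that bin. A second rise was largest in the step from Ighv1-5 to Ighv1-10, with 443 and 1157 fragments and a log2 ratio of 1.76 (1.60 to 1.92). Farther out, the 2 steps from Ighv1-50 to Ighv8-8 were at 0.13 (-0.02 to 0.28) and 0.12 (-0.06 to 0.30), and the 7 steps from Ighv1-62-2 on lay between 0.50 and 0.77.

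The rest of the locus did not rise with the V region, except for the flank beyond it. The stretch between Tmem121 and Igha, which holds the 3′ regulatory region, had 3386 and 2467 fragments, a ratio of 0.944 (0.895 to 0.994). Constant region genes from Igha to Ighm had a ratio of 0.824 (0.762 to 0.890). The intron between Ighm and Ighj4, where the intronic enhancer lies, had 345 and 227 fragments, a ratio of 0.852 (0.717 to 1.01). From Ighj4 to Ighd1-1 the ratio was 0.773 (0.650 to 0.917), and between Ighd1-1 and Ighd3-1 it was 0.827 (0.699 to 0.977). The stretch between Ighd5-1 and Ighv5-1 had 86 and 56 fragments, a ratio of 0.843 (0.591 to 1.19). Beyond the last V segment, the flank up to the promoter of Zfp386 had a ratio of 1.39 (1.14 to 1.70), and Zfp386 itself, a zinc finger gene, 1.04 (0.964 to 1.11). The sperm protein gene Adam6b, which lies among the D segments, held 17 and 7 fragments, and Adam6a, between D and V, held 8 and 6. In the 1 Mb outside either end of the locus the ratios were 0.944 (0.933 to 0.955) on the constant side and 1.06 (1.03 to 1.08) on the V side.

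The 5 bins with the most fragments between Tmem121 and Zfp386 changed little. Of these, 2 neighbouring bins between Tmem121 and Igha, 206 and 211 kb from Ighj4, had log2 ratios of -0.10 (-0.20 to 0.01) and -0.08 (-0.23 to 0.07). The bin of the Zfp386 promoter had -0.02 (-0.13 to 0.09), a bin of the V region 949 kb from Ighj4 had 0.10 (-0.09 to 0.29), and a bin among the constant region genes -0.32 (-0.53 to -0.10). In contrast, the sixth, which holds the end of Ighv15-2, had 180 and 559 fragments, and its log2 ratio had an interval of 1.76 to 2.26.

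The V region was sparse in both libraries. Its density was 0.0883 FPM per kb in young and 0.140 in aged cells, while the mean over the autosomes and X was 0.380 FPM per kb by construction. Segment windows made up 10.7% of the V region and held 38.4% of its young and 42.9% of its aged fragments. Outside the windows the V region also rose, from 6638 to 7512 fragments, a ratio of 1.47 (1.42 to 1.52). In the middle part that ratio was 2.18 (1.98 to 2.39), in the distal part 1.40 (1.35 to 1.45) and in the proximal part 1.17 (1.03 to 1.33). The gain was thus seen between the segments as well as on them, and was larger on them in each part, although in the proximal part the intervals overlapped.

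**Figure D3:**
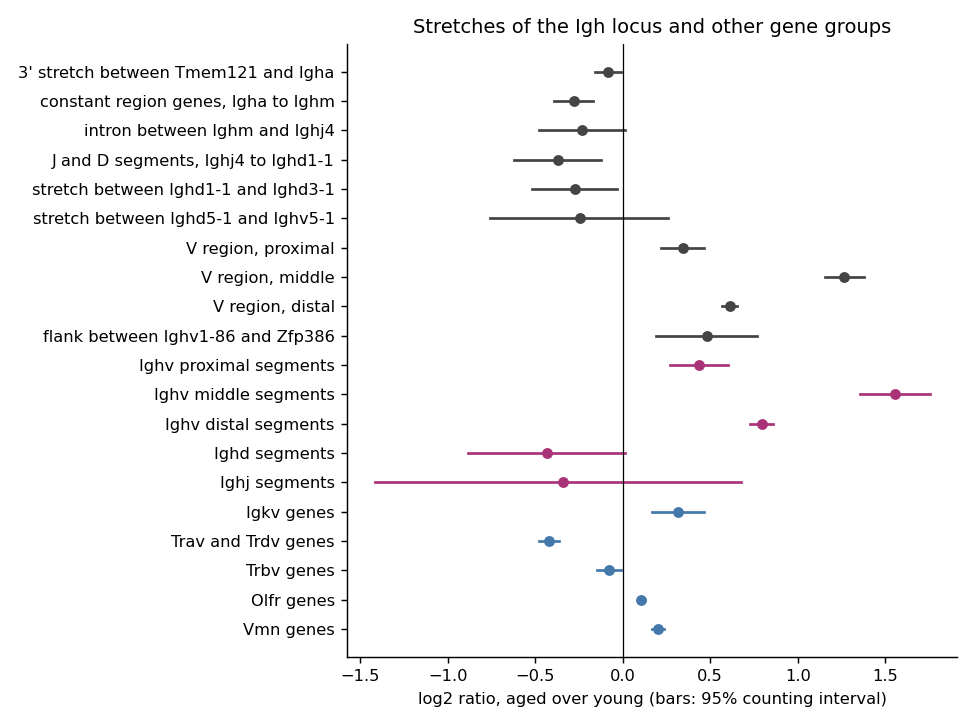
Log2 ratio of summed FPM, aged over young, with 95% counting intervals, for stretches of the Igh locus (grey), Igh segments (purple) and other gene groups (blue). The V stretches and V segments lie above 0, the middle part farthest, and the D, J and constant stretches lie below 0.

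Open chromatin at V segments was sharply placed. Fragment ends (cut sites) piled up just downstream of the 3′ end of the segment, over the RSS and the bases after it. In the 100 bp after the end there were 2354 young and 3293 aged cut sites over the 183 segments. The 5 times longer stretch from 500 to 1000 bp downstream held 583 and 716. In the middle part the near cut sites went from 240 to 567, in the proximal part from 423 to 465, and in the distal part from 1691 to 2261. In the proximal and middle parts the pile had a dip: in bins of 20 bp at 40 to 60, 60 to 80 and 80 to 100 bp downstream, the proximal segments had 128, 51 and 98 young and 134, 45 and 117 aged cut sites. In the middle part the counts were 69, 27 and 67 young and 190, 61 and 161 aged. The distal part showed no such dip, with 360, 386 and 314 young and 482, 535 and 396 aged cut sites. These profiles pool segments, and the 10 highest V segments held 35.4% of young and 35.0% of aged V segment fragments. Among distal segments the densest spots lay 7 and 19 bp downstream at Ighv1-47 and Ighv1-2, but 120 and 103 bp downstream at Ighv8-6 and Ighv8-12. The distal profile therefore mixes positions. The part of the transposase's own base preference in these profiles was not tested.

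**Figure D4:**
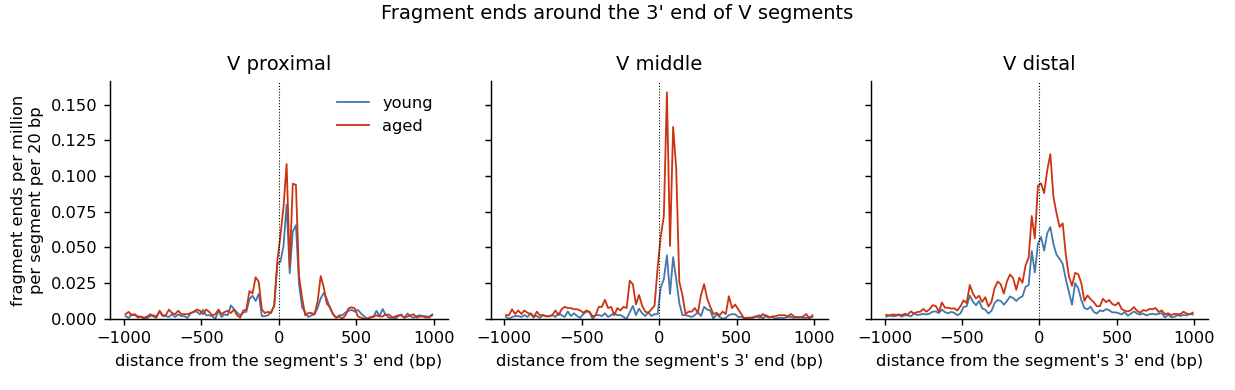
Fragment ends per 1000000 nuclear fragments per segment in bins of 20 bp around the 3′ end of V segments (0, dotted line; positive values are downstream), for the proximal, middle and distal part in the young (blue) and aged (red) library. The peak lies within about 100 bp downstream of the end in all parts, is split by a dip in the proximal and middle parts, and differs most between libraries in the middle part.

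The bases after the segments were searched for 8 short motifs on both strands. The core AGGNGGC of the CTCF motif was found within 150 bp downstream of 19 of 32 proximal segments (59.4%), 14 of 31 middle segments (45.2%) and 8 of 120 distal segments (6.67%), and in 5.88% of windows of 150 bp taken every 5 kb along chromosome 12. Of the 16 proximal segments with at least 20 fragments, 15 had it. The proximal segments with the core had a median of 54 fragments and those without it a median of 8. These are also the medians of the proximal functional genes and pseudogenes, and all 16 are functional genes. The core and the type of gene can therefore not be told apart there. Of the sequences below, 3 are given because they carry the core at 60 to 80 bp, where the dip lies, and 1 for contrast, each as the 120 bases after the segment, 5′ to 3′ on the minus strand of mm10, with the core and any intact heptamer in capitals.
Ighv5-2, chr12:113578384-113578503: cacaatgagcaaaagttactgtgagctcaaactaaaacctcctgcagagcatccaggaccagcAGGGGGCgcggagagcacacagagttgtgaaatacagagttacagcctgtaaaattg
Ighv2-3, chr12:113611067-113611186: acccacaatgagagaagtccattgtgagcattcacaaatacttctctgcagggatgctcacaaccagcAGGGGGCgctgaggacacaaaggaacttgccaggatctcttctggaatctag
Ighv4-2, chr12:114013024-114013143: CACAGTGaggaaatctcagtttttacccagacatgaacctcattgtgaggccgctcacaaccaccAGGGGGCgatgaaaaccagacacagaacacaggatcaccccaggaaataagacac
Ighv11-2, without an exact core, chr12:114048121-114048240: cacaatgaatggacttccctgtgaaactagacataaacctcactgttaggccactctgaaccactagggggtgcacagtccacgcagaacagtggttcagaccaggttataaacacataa
Of these, Ighv5-2 had 74 and 40 fragments, Ighv2-3 92 and 87, Ighv4-2 33 and 87, and Ighv11-2 28 and 84, so segments with the core were found among those that rose and those that did not. Summed by part, the log2 ratios with and without the core were 0.45 (0.27 to 0.63) and 0.33 (-0.21 to 0.86) in the proximal, 1.70 (1.40 to 2.01) and 1.43 (1.17 to 1.70) in the middle and 0.71 (0.45 to 0.97) and 0.80 (0.73 to 0.87) in the distal part, with intervals that overlapped in each. For the intact heptamer within 150 bp, the proximal log2 ratios were 0.92 (0.66 to 1.18) with it and 0.06 (-0.16 to 0.29) without it. In the distal part they were 0.88 (0.79 to 0.96) and 0.65 (0.55 to 0.76). In the middle part they were 1.60 (1.34 to 1.87) and 1.49 (1.18 to 1.80). Ighv1-2, Ighv1-5, Ighv8-2 and Ighv15-2, with log2 ratios of 2.74, 3.22, 3.11 and 1.80, are among the distal segments with the heptamer. The distal contrast was not computed without them, so it may rest on these few segments. The proximal contrast was not separated from position. Near the D segments, the best matches at Ighv5-2, Ighv5-4, Ighv2-3 and Ighv5-6 have CACAATG, but that at Ighv2-2 has the intact heptamer. Farther out, Ighv5-16 and Ighv5-17 have it intact, and Ighv5-12 has CACAATG.

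Distal segments carried another motif. TGTGGTT, the core bound by Runx factors, was found within 150 bp downstream of 73 of 120 distal segments (60.8%), 8 of 31 middle segments (25.8%) and 0 of 32 proximal segments, beside 3.59% of the windows of chromosome 12. Read on the other strand it is AACCACA, which in many segments lies in the RSS spacer, as in Ighv1-47, Ighv1-58 and Ighv9-4 above. In those segments the motif is a stretch of the RSS and not a separate site. Of the 64 distal segments with at least 20 fragments, 50 had it. Distal segments with the motif had a median of 32 fragments and those without it a median of 9. Their summed log2 ratios were 0.65 (0.58 to 0.73) with the motif and 1.29 (1.15 to 1.43) without it, but this contrast rested on a few segments. Without Ighv1-2, Ighv1-5 and Ighv8-2, which lack the motif, and Ighv15-2, which has it, the log2 ratios were 0.57 (0.50 to 0.65) with the motif and 0.65 (0.48 to 0.82) without it. The order was the other way in the middle part, where the 8 segments with the motif had 24 and 105 fragments, an interval of 1.85 to 3.21, and those without it a log2 ratio of 1.43 (1.22 to 1.64). Segments of 1 family descend from a common copy and share their flanks, so these counts are not independent. Of the remaining motifs, the octamer ATGCAAAT, a promoter element of V genes that lies upstream, was found downstream of 0 segments (1.28% of chromosome 12 windows). The AP-1 motif TGANTCA was found downstream of 7 (4.61%), the Ets motif GAGGAAG of PU.1 downstream of 14 (4.55%), the E-box CAGCTG downstream of 17 (5.62%) and GAAANNGAA, bound by interferon regulatory factors, downstream of 6 of the 183 (5.91%), with the share of chromosome 12 windows in parentheses. These are 3.83%, 7.65%, 9.29% and 3.28% of segments, so AP-1 and the last were below that share. Over all V segments, the log2 ratio was 0.22 (0.04 to 0.40) with the AP-1 motif and 0.89 (0.83 to 0.95) without it. With the PU.1 motif it was 0.37 (0.12 to 0.62) and without it 0.85 (0.79 to 0.91). For the E-box and the last motif the intervals overlapped. The AP-1 and PU.1 values rest on few segments. Of the 517 young and 465 aged fragments with the AP-1 motif, 4 distal segments hold 431 and 369. Nearly all of these lie at Ighv1-58 and Ighv1-47, with 396 and 390 fragments over both libraries and log2 ratios of -0.08 and 0.43. At Ighv1-58 the motif spans the end of the RSS spacer and the nonamer, so it is a stretch of the RSS there. Whether single segments set the PU.1 value was not tested.

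The 40 densest places of the V region, windows of 300 bp chosen by their summed FPM in both libraries, showed how far the signal follows the segments. Of these, 25 lay within a segment's window and 24 within 150 bp of a segment's 3′ end. With a pseudocount of 1 fragment, the aged library was at least 1.5-fold higher at 23 of the 40 and that much lower at 0, while 10.1% of 302101 windows of this length with at least as many fragments (63) were higher and 4.6% lower over the genome. Since the places were chosen on both libraries, some are among the 40 through the aged one, such as that at Ighv1-5 with 19 and 158 fragments, and the count is no support. The place at Ighv5-2, with 68 and 35 fragments and a ratio of 0.667 without the pseudocount, lay at the limit for lower. Of the 23 called higher, 13 lay in segment windows. The heptamer was present in 19 and TGTGGTT also in 19 (47.5% each), against 7.32% and 6.98% of windows of 300 bp taken every 5 kb along chromosome 12. The sequences of 3 of these places are given as the 150 bases around the summit, 5′ to 3′ on the minus strand of mm10, with all searched motifs in capitals, because they stand for the range of behaviours.
The densest, 120 bp downstream of Ighv8-6, chr12:115165582-115165731: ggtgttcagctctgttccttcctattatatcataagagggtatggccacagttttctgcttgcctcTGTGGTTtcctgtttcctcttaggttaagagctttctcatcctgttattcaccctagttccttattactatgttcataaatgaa
The densest outside segment windows, chr12:114378870-114379019: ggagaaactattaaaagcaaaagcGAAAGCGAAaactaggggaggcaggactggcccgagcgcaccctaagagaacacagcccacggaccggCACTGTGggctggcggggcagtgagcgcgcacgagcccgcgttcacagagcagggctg
The densest outside segment windows that was called higher, chr12:113944044-113944193: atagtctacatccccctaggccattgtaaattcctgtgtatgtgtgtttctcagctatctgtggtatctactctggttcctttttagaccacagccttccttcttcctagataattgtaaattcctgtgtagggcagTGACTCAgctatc
The place beside Ighv8-6 had 270 and 249 fragments, a log2 ratio of 0.26 (0.00 to 0.51). The second, 12424 bp from the nearest V segment (Ighv12-3), had 336 and 260, a log2 ratio of 0.00 (-0.24 to 0.24). The third, 4163 bp downstream of Ighv4-1 in the middle part, had 44 and 197, a log2 ratio of 2.54 (2.06 to 3.04).

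Fragment length did not separate the libraries at V segments. Fragments shorter than the DNA wound on a nucleosome made up 56.8% of young and 55.6% of aged fragments in V segment windows, against 59.8% and 55.0% of all nuclear fragments. Outside the windows they made up 41.6% and 42.7%. In the middle part outside the windows the share was 28.3% and 44.1%.

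The gain was spread over many cells. After each cell was thinned at random to 3000 nuclear fragments, 45.4% of young cells (95% exact binomial interval 44.0 to 46.9) and 62.6% of aged cells (61.0 to 64.3) had at least 1 V region fragment, with no cell left out. Before thinning the shares were 79.3% and 93.1%. For the middle part the thinned shares were 6.00% (5.35 to 6.70) and 13.3% (12.2 to 14.5). For the stretch from Ighj4 to Ighv5-1 they were 4.99% (4.40 to 5.64) and 3.91% (3.28 to 4.61), and for the constant region genes 9.58% (8.77 to 10.4) and 7.49% (6.63 to 8.42). The variance of the thinned V region counts was 1.13 times the mean in young and 1.11 times in aged cells, where counts drawn at 1 common rate would give 1. The 10 cells with the most V region fragments held 1.78% of the young and 1.75% of the aged fragments of the region. Cells in which 2 nuclei share a barcode were not removed.

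**Figure D5:**
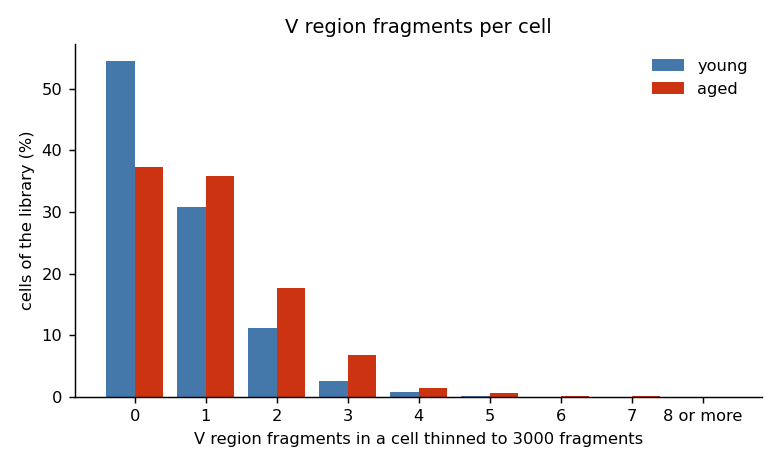
Percentage of cells in each library by the number of V region fragments after each cell was thinned to 3000 nuclear fragments, for young (blue, 4887 cells) and aged (red, 3405 cells) HSCs. Fewer aged cells have 0 and more have 2 or above, with no separate group of cells at high counts.

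Markers of B cells, the cell type in which this locus is used, were read at their promoters. Summed over 10 of these (Cd79a, Cd79b, Ms4a1, Pax5, Ebf1, Vpreb1, Igll1, Blnk, Cd22 and Blk, each 1 kb on either side of the start), they held 50.5 young and 47.7 aged FPM. None of the 10 was at 0 in either library, 4 had a log2 ratio above 0, and of the 9 with at least 20 fragments 1 was called higher and 0 lower, where 7.64% of 34007 promoters of all genes were called higher and 6.24% lower. Ms4a1, which encodes the B cell antigen CD20, had 12 and 6 fragments, too few for a call. The signalling gene Cd79a had 65 and 53 fragments, and the factor Pax5 had 107 and 97. Blk, a kinase gene, was the one called higher, with 14 and 18 and a log2 interval of -0.35 to 1.85. Blnk, with 242 and 138 fragments, had a log2 ratio of -0.44 (-0.75 to -0.13). Vpreb1, which held the most fragments of the 10 (1104 and 769), had -0.15 (-0.28 to -0.01). There were 36 young cells (0.737%) and 39 aged cells (1.15%) with fragments at 3 or more of these promoters. In all other cells the V region stood at 215.1 FPM (211.1 to 219.2) among young and 340.4 FPM (334.5 to 346.3) among aged cells. The former cells hold 104 of 10777 young and 189 of 13161 aged V region fragments, and the part of B cells in the difference was not tested. Promoters of 6 T cell markers held 7.29 and 4.76 FPM, and 4 of them were called lower. Those of 5 myeloid markers held 4.39 and 4.37 FPM, but Elane was called higher, with a log2 ratio of 0.74 (0.21 to 1.28), and Mpo, with -0.70 (-1.23 to -0.19), and S100a9 lower. Those of 4 erythroid markers held 32.4 and 29.8 FPM, with 1 called lower.

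The genes that carry out and direct heavy chain recombination showed no gain in sum. Of 28 promoters, 0 were called higher and 1 lower, beside 7.64% and 6.24% of all promoters. A log2 ratio above 0 was found for 5 and the median was -0.14, beside -0.07 over all promoters. The summed ratio was 0.900 (0.885 to 0.915). The recombinase genes Rag1 and Rag2 had 62 and 35 and 144 and 117 fragments, log2 ratios of -0.45 (-1.09 to 0.17) and 0.07 (-0.29 to 0.44). Dntt, which encodes the enzyme that adds bases at the joints, had 41 and 36. Il7r, the receptor of a cytokine needed by early B cells, was the gene called lower, with 79 and 40 fragments and a log2 ratio of -0.61 (-1.20 to -0.04). Among locus regulators, Ctcf had a log2 ratio of -0.23 (-0.33 to -0.13), Yy1 -0.21 (-0.31 to -0.12), Ezh2 -0.27 (-0.38 to -0.16), Pax5 0.23 (-0.18 to 0.64), and Ebf1 0.12 (-0.07 to 0.32). The cohesin genes Rad21 and Wapl lay at -0.18 (-0.29 to -0.06) and -0.17 (-0.27 to -0.07).

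Summed over members, other clustered gene families did not gain to the same extent. The 160 Igkv segments of the kappa light chain had 750 and 720 fragments, a ratio of 1.24 (1.12 to 1.38), but were so sparse that 6 reached the minimum. The 134 V segments of the T cell receptor alpha and delta chains had a ratio of 0.747 (0.717 to 0.778), with 3 of 68 called higher and 26 lower, where 7.24% and 3.96% of all genes were. The 35 Trbv segments of the beta chain had a ratio of 0.947 (0.902 to 0.994), with 5 of 27 called higher and 2 lower. Olfactory receptor genes (Olfr, 1407) and vomeronasal receptor genes (Vmn, 563), which form large clusters of sensory genes, had ratios of 1.08 (1.06 to 1.09) and 1.15 (1.12 to 1.18). Of these, 144 of 747 Olfr genes (19.3%) were called higher and 56 lower, and 61 of 249 Vmn genes (24.5%) were called higher and 6 lower, both above the share over all genes. These genes are sparse, at 0.0852 and 0.0392 young FPM per kb, and could reach the minimum through the aged library, so the counts are no support. Among sparse bins of 5 kb, with 20 to 100 fragments, 17.8% were called higher. The intervals of all 5 groups lay below that of the Igh V segments, 1.70 to 1.84.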

How the data were processed

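The deposited files held, per library, a list of unique fragments with barcodes and a table of counts per barcode. Per the labels and the study's methods, the authors sorted pooled bone marrow, used the Chromium Next GEM Single Cell ATAC kit, and aligned to mm10 and called peaks and cells with Cell Ranger ATAC; the deposited counts are of reads or fragments, with no normalization. Cells had 3000 to 20000 in-peak fragments. Fragments were counted per segment window and 5-kb bin with numpy 2.4.6 and numba 0.67.0, and scaled per 1000000 nuclear fragments. Ratios of segments and bins, and all calls, had a pseudocount of 1 fragment. Ratios of places, promoters and sums, and all intervals, had none; intervals came from the exact binomial share of aged fragments; levels had exact Poisson intervals (scipy 1.17.1). Coordinates were 1-based GRCm38 (mm10) with GENCODE M21. Sequences came from the GRCm38.p6 reference of RefSeq. Counting was tested on simulated data. A window with 0 fragments allows up to 0.0599 FPM (young) or 0.0776 FPM (aged), the level of 3 fragments. Named segments were the 10 most open per kb, up to 5 with the highest and lowest ratios past 1.5-fold, and landmarks, besides a few chosen after their values were seen (segments beside Ighv5-2, middle-part segments with more fragments, and segments near the fold limit). The members, lists and motifs were chosen with earlier results of these data known. The boundaries of the V parts were set after the files were examined. Of the B cell markers, 1 is not reported here and entered no value, so the list is not complete.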

Additional observations from a re-analysis of the deposited data

Results flagged for a closer look

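Barcodes that were not called as cells, which entered no comparison, held V region fragments too. There were 995 such fragments among 2976889 nuclear fragments in the young library (334.2 FPM) and 2746 among 5228796 in the aged library (525.2 FPM), a ratio of 1.57 (1.46 to 1.69). The stretch from Ighj4 to Ighv5-1 had 60 and 146 fragments in these barcodes, a ratio of 1.39 (1.02 to 1.90). This was flagged because it is a signal in data outside the comparisons, above the 3 fragments that a count of 0 allows.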

How the results depend on the processing

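No paired analysis was possible because each age had 1 library, and for the same reason no library could be left out. None of the sums over V parts, D or J changed direction under any alternative run. Among the medians over bins of the V region and its parts, only the proximal median changed direction. It went from 0.28 to -0.10 when the minimum of fragments was set on the young library alone. The log2 ratio of all V segments, 0.82, was 0.67 when scaled to fragments outside the authors' peaks (which lowers every ratio by 0.15), 0.91 with fragments shorter than the DNA of a nucleosome and 0.96 with unique windows; the distal sum, 0.79, was 0.64, 0.87 and 0.97 there. With short fragments the middle sum was 1.77 (main 1.55), the D sum -1.09 (main -0.43) and the middle bins' median 2.29 (main 1.27, 14 bins left); without a minimum of fragments, which lets in the sparsest bins, that median was 0.63 over 87 bins. The 54 members called higher became 33 with short fragments, 35 with a minimum of 50 fragments and 86 with no minimum. The 2 called lower became 5 with the scaling outside peaks, 6 with windows of 1000 bp, 1 with unique windows, 6 with a minimum of 10, 1 with 50 and 23 with no minimum. The share of cells with a V region fragment, 45.4% young and 62.6% aged, was 66.7% and 84.3% at 6000 fragments per cell, 79.3% and 93.1% without thinning and 23.8% and 37.3% with short fragments. The cause of these shifts was not tested. Without the 10 cells with the most V region fragments in each library, chosen after seeing the data, the V sum was 0.83 and the proximal bins' median 0.11 (main 0.28). That median was 0.79 in unique bins and, as given above, -0.10 with the young minimum. Depth limits single segments, and 1 library per age limits every comparison.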
